A study of Homo sapiens with 44 samples.

Results

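The guanylate-binding proteins (GBPs) are large interferon-inducible GTPases encoded by 7 neighbouring genes on chromosome 1. Chromatin accessibility at these genes was measured by Omni-ATAC, in which the Tn5 transposase inserts adaptors into open chromatin, in Ccd18-Co cells, a human colon fibroblast line. All deposited peaks whose row carried the symbol GBP1, GBP2, GBP3, GBP4, GBP5, GBP6 or GBP7 were taken, 71 of 407383 peaks in all. By gene, 20 peaks carried the name GBP5, 13 GBP1, 12 GBP2, 11 GBP6, 9 GBP4, 4 GBP3 and 2 GBP7, and all 71 passed the filter on low coverage.

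The 44 libraries formed 11 groups of 4. All came from this 1 line, with no donor or genotype difference between groups, kept in serum-free medium and, per the study's methods, collected after 24 h. One group was unstimulated, and the others each received 1 recombinant human cytokine. It was IL6, IL13, IL17A, IL22, IFNA, IFNG, TGFB1, TNF or OSM at 10 ng/ml, or IL1B at 0.1 ng/ml. For IL1B, a figure legend of the study gives a lower dose than its methods do. The labels do not say whether the 4 libraries of a group came from separate cultures, so p-values measure the spread between these libraries, which may be technical. Total coverage ran from 148.8 Mb in IL6 replicate 4 to 823.1 Mb in IFNA replicate 2, with a median of 416.3 Mb. Start-site peaks of the fibroblast markers summed to between 110.1 and 129.7 bases per Mb in unstimulated libraries and to between 113.2 and 129.6 with IFNG, and none of these 8 genes was called with IFNG. The endothelial markers summed to at most 4.18 bases per Mb in either group and the 1 epithelial marker with a peak to at most 1.32. The 2 leukocyte markers with a start-site peak summed to between 3.67 and 7.35 bases per Mb with IFNG and to between 5.80 and 7.05 without it. PTPRC, CD3E, CDH1 and KRT20 had no peak within 1 kb of their start.

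GBPs bind and hydrolyse GTP, and several of them assemble on the membranes of intracellular pathogens or of the vacuoles that hold them, where they recruit further defence proteins. Type II interferon (IFNG) signals through a receptor with the kinases JAK1 and JAK2 and acts on DNA at gamma-activated sites (GAS). Type I interferon (IFNA) signals through JAK1 and TYK2 to a complex that contains IRF9 and binds interferon-stimulated response elements (ISRE), and IRF1, itself an interferon target, binds the same elements.

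On hg38, with GENCODE annotation, the genes lie in the order GBP3, GBP1, GBP2, GBP7, GBP4, GBP5 and GBP6. All are on the minus strand except GBP6, and the transcribed regions of GBP2 and GBP7 overlap. The peaks run over chr1:89021689-89433505, 411.8 kb, and no deposited peak in this span carried the name of a gene outside the 7. A name is the assignment in the deposited table, and which gene a peak acts on was not tested. The peak GBP2-12 lay in the coding sequence of GBP7, and GBP6-9 lay 43.51 kb beyond the GBP6 start, 111 bases from the start of GBP1P1, named as a pseudogene of GBP1, on the opposite strand. Peaks are numbered here within each gene in chromosome order. By the class in the deposited rows, 33 were distal, 20 intronic, 10 exonic and 8 at promoters.

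The ISRE core was searched as GAAANNGAAA and the GAS as TTCNNNGAA, on both strands. An ISRE match was present in 16 of the 71 peaks (22.5%), against 9.11% of all 407383 peaks of the same length. A GAS match was present in 21 (29.6%), against 17.2% of all peaks. The NF-κB consensus matched in 4 peaks (5.63%), against 13.0% of all, and the AP-1 motif TGANTCA in 18 (25.4%), against 25.7%. A 10-letter ISRE match can overlap a GAS match, as it did in GBP5-6, and a match is a description of the letters only. In the RefSeq promoter windows (GRCh38.p14, 250 bases before to 50 after the start), which were found for GBP1, GBP3, GBP4, GBP6 and GBP7, an ISRE match stood in those of GBP1, GBP3 and GBP4, against 3.57% of 35116 promoters. A GAS match stood in that of GBP3, against 7.66% of promoters, an NF-κB match in those of GBP4 and GBP7, against 11.3%, and an AP-1 match in those of GBP3 and GBP6, against 7.71%.

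ISRE matches close to gene starts are shown, first from 5 peaks that opened with IFNG and then from 2, chosen after their values were seen, that did not pass the test. Each is given 5′ to 3′ on the strand with the GAAA form, with the ISRE in capitals and 10 bases of hg38 on each side.
GBP1-8, plus strand, chr1:89065316-89065345, centred 123 bases before the GBP1 start: agagtaatatGAAACTGAAAgtacttcgtt
GBP3-2, plus strand, chr1:89022845-89022874, centred 6 bases after the GBP3 start: agagcctaatGAAACTGAAAgtacttcttt
GBP6-9, minus strand, chr1:89407573-89407602, beside the GBP1P1 start: agagtaatatGAAACTGAAAgtacttcatt
GBP4-6, plus strand, chr1:89198927-89198956, at the GBP4 start: tgtgagaaccGAAATTGAAAggacatgcac
GBP6-6, minus strand, chr1:89363416-89363445, 628 bases before the GBP6 start: aaacaactcaGAAACCGAAAgtcaaatacc
GBP3-1, plus strand, chr1:89021716-89021745, not passing, centred 1135 bases after the GBP3 start: tagagtaggaGAAAGAGAAAtgggaagagg
GBP1-7, plus strand, chr1:89064130-89064159, not passing, centred 1063 bases after the GBP1 start: tagggtaggaGAAAGAGAAAtagaaagagg
The ISRE peaks GBP3-1 and GBP1-7, and GBP6-10, likewise chosen, at 952 bases from the GBP1P1 start, had log2 changes with IFNG of 0.19 (limma adjusted p = 0.915), 0.32 (0.843) and 0.79 (0.482). A second match in GBP1-7 overlapped the one shown. The GBP1-8 and GBP6-9 runs were identical at 29 of 30 bases, and at 195 of 300 bases (65.0%) when the surroundings were set side by side without gaps. GBP3-2 shared 25 of 30 bases with GBP1-8.

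GBP5 has no RefSeq promoter entry in the tables used. Its most changed peak, GBP5-8, is centred 1.71 kb before the GBP5 start, and its central 300 bases (plus strand, chr1:89274417-89274716) are shown with the ISRE match and both GAS matches in capitals.
GBP5-8: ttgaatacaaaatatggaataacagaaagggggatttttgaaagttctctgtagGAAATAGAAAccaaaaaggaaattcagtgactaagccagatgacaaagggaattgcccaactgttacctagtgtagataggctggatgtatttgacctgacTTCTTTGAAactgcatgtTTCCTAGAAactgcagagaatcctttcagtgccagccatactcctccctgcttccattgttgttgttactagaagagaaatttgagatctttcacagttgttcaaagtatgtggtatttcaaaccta
GBP5-13, centred 14.15 kb before the GBP5 start, differed most between IFNA and IFNG, and its central bases (plus strand, chr1:89286865-89287164) hold a GAS match and then an ISRE match.
GBP5-13: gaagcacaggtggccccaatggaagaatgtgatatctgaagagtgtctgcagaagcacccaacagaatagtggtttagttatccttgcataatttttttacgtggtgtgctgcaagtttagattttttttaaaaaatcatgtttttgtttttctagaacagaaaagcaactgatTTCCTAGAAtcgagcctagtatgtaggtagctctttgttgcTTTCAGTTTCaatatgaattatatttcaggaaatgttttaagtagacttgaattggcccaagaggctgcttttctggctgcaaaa
A second element of this kind, in GBP5-19 at 37.9 kb before the start, shared 26 of 30 bases around its ISRE with GBP5-13.

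Values are coverage sums per 500-base peak, scaled to each library's total and composition and given as bases per Mb. Changes are log2 differences of the value plus 0.5, which understates the change of low peaks, tested by limma across 407176 peaks with Benjamini-Hochberg adjustment, and a peak is called at an adjusted p under 0.05.

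IFNG opened chromatin at all 7 genes, most often at GBP1 and GBP5. It raised 36 of the 71 peaks and lowered 0, where 1.48% of all tested peaks were raised, and each of the 7 genes had at least 1 raised peak. GBP1 and GBP5 held 25 of the 36. In the 125.3 kb from GBP2-7 to GBP5-1, 2 of 18 peaks were raised, GBP7-1 and GBP4-6. This stretch was chosen after the values were seen, and the peaks next to its ends, GBP2-6 and GBP5-2, were raised. The median change over the 71 peaks was 1.18 on the log2 scale, beside -0.01 over all tested peaks. In 41 of the peaks all 4 IFNG libraries lay above all 4 unstimulated libraries, which held for 3.92% of all tested peaks, and these included all 36 raised peaks. Among the 36, 19 rose by more than 2 on the log2 scale. In bulk samples, more cells with an open site and a more open site in each cell cannot be told apart.

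GBP5, which takes part in inflammasome assembly and restricts the processing of viral envelope proteins, held the largest changes, with 15 of 20 peaks raised. Coverage of GBP5-8 was 2.48, 1.47, 0.69 and 2.36 bases per Mb in the unstimulated libraries and 28.9, 32.6, 27.4 and 33.8 with IFNG. The lowest IFNG library thus stood far above the highest unstimulated one. The log2 change was 3.88 ± 0.31 (SE; limma adjusted p = 9.00e-25), from a mean of 1.75 ± 0.84 to 30.7 ± 2.99 (SD, n = 4). The start-site peak GBP5-7 went from 0.03, 0.71, 0.98 and 0.28 to 8.74, 7.22, 11.7 and 7.03, a log2 change of 3.28 ± 0.39 (limma adjusted p = 6.73e-12). This peak, unlike GBP5-8, held no ISRE or GAS match. GBP5-6, in an untranslated exonic stretch 1.03 kb inside the gene, rose from a mean of 0.70 to 11.6 (log2 change 3.52 ± 0.35, limma adjusted p = 1.20e-16). Raised peaks continued to GBP5-20, 39.09 kb before the start. GBP5-13 rose from a mean of 0.62 to 10.4, and GBP5-16, chosen after its values were seen, from 1.11 to 13.8 at 27.0 kb before the start.

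GBP1, which binds bacterial lipopolysaccharide and coats cytosolic bacteria, had 10 of 13 peaks raised. Its start-site peak, GBP1-8, was already the most open of the 71 in unstimulated cells, at 16.1, 10.2, 13.6 and 11.2 bases per Mb. With IFNG it reached 29.0, 34.0, 31.5 and 27.3, a log2 change of 1.23 ± 0.15 (limma adjusted p = 9.81e-12). The gene's largest change was at GBP1-1, 19.62 kb downstream of the start and beyond the gene's end, which rose from a mean of 0.55 ± 0.30 to 6.47 ± 1.12 (SD, n = 4; log2 change 2.77 ± 0.39, limma adjusted p = 1.16e-08).

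GBP2, which acts with GBP1 on bacterial and vacuolar membranes, had 4 of 12 peaks raised. Its start-site peak, GBP2-4, measured 7.58, 7.76, 9.73 and 7.48 bases per Mb without cytokine and 20.4, 20.4, 18.1 and 17.3 with IFNG, and the groups did not overlap. The log2 change was 1.18 ± 0.18 (limma adjusted p = 1.44e-07). GBP2-1 had the gene's largest change, 1.62 ± 0.40 (limma adjusted p = 0.0068), at low coverage, with a mean of 0.57 before and 2.41 after. That call was lost without unstimulated replicate 2 or 3 and with a pseudocount of 0.1. The calls of GBP2-2 and GBP2-6 were also lost in some alternatives (limma adjusted p up to 0.0716 and 0.0577). Of the 4, only that of GBP2-4 held in every alternative.

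GBP3, which joins the GBP1 coat on bacteria, had 2 of 4 peaks raised. Its start-site peak, GBP3-2, went from 5.37, 3.65, 4.91 and 5.55 to 7.40, 8.81, 9.76 and 10.2, the smallest change among the raised peaks (log2 change 0.83 ± 0.23, limma adjusted p = 0.0276). The groups did not overlap, but the call was lost when any of 5 single libraries was left out, with an adjusted p of up to 0.173 (limma, without unstimulated replicate 2). GBP3-4, 18.37 kb before the start, rose from a mean of 2.27 ± 1.40 to 6.38 ± 1.54 (SD, n = 4; log2 change 1.41 ± 0.30, limma adjusted p = 0.00057).

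GBP4, also part of the GBP1 coat, had 1 of 9 peaks raised, the one at its start. GBP4-6 measured 0.72, 1.21, 0.64 and 1.05 without cytokine and 3.50, 4.85, 4.79 and 4.69 with IFNG. The log2 change was 1.83 ± 0.38 (limma adjusted p = 0.00047), and with a pseudocount of 0.1 the adjusted p was 0.0532. The other 8 GBP4 peaks stayed at or under 2.66 bases per Mb on average with IFNG.

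GBP6 and GBP7 are less studied members. GBP6 had 3 of 11 peaks raised, and the peak nearest its start, GBP6-7, was not among them, at a mean of 0.64 ± 0.57 without cytokine and 0.60 ± 0.40 with IFNG (SD, n = 4). GBP6-6, 0.70 kb before the start and chosen after its values were seen, went from 0.73, 1.81, 1.72 and 1.15 to 11.3, 9.03, 10.5 and 8.92 (log2 change 2.53 ± 0.35, limma adjusted p = 8.05e-09). GBP6-9, beside GBP1P1, went from 2.27, 1.34, 0.83 and 1.81 to 13.6, 19.1, 14.3 and 16.6, the largest change of a peak named for GBP6 (3.03 ± 0.31, limma adjusted p = 4.81e-16). Of the 426 words of 75 bases in this peak, 14 recur elsewhere in the locus, and how reads that match more than 1 place were counted is not given in the sources used here. Such words occurred in 8 of the 71 peaks, 5 of them at GBP1, and in at most 10.1% of the words of any peak.
GBP7 had no peak within 1 kb of its start. GBP7-1, in an intron of the gene, went from 0.20, 0.19, 0.22 and 0.70 to 2.23, 2.07, 1.48 and 1.67 (log2 change 1.54 ± 0.39, limma adjusted p = 0.00861). It was the 1 raised peak of the 2 named for GBP7, and its coverage without cytokine was low. With a pseudocount of 0.1 its limma adjusted p was 0.0444.

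**Figure D1:**
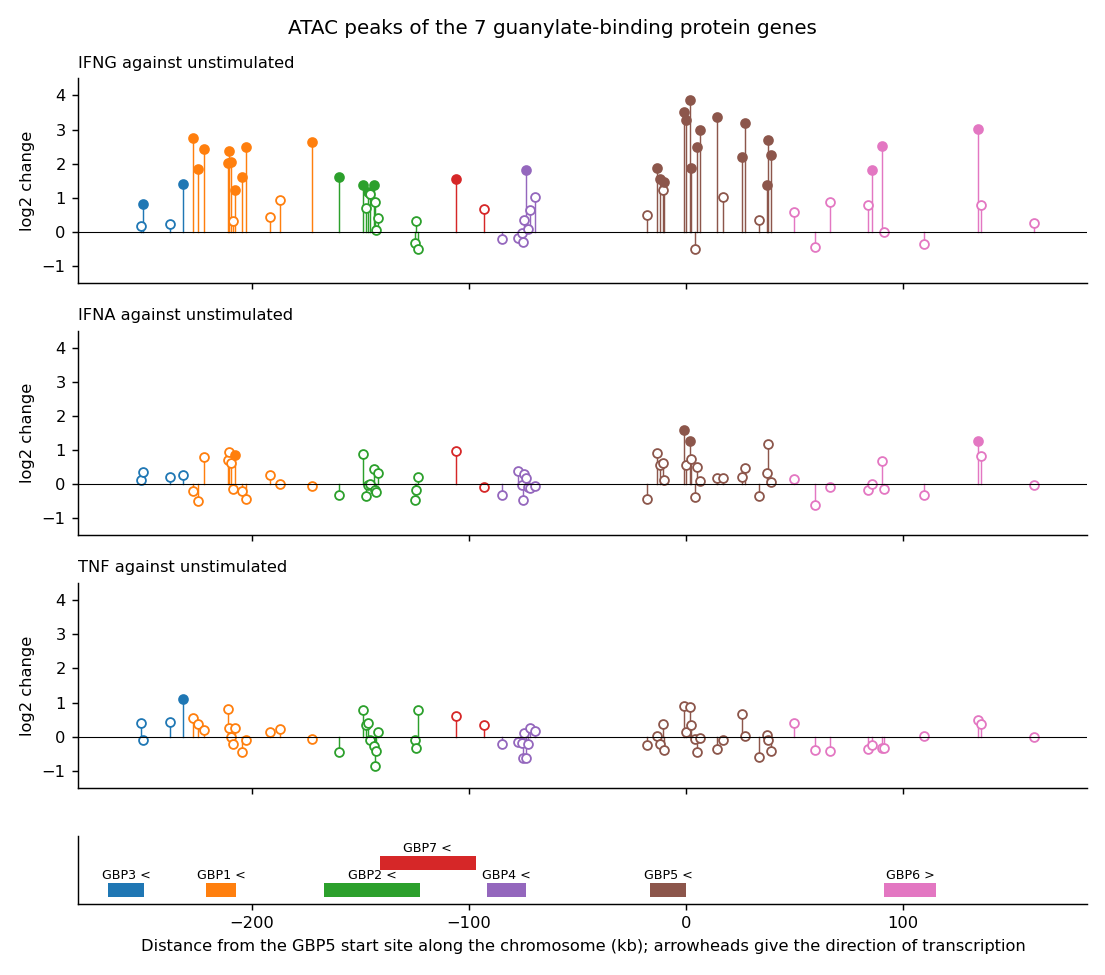
Log2 change against unstimulated cells (vertical axis) of each of the 71 peaks, by distance from the GBP5 start in kb, for IFNG, IFNA and TNF, with filled points for adjusted p under 0.05 and gene bodies below. Filled points number 36 with IFNG, 25 of them at GBP1 and GBP5, and number 4 with IFNA and 1 with TNF. With IFNG, 2 of 18 are filled between GBP2-7 and GBP5-1, a stretch chosen after the values were seen.

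Most peaks had little coverage at rest, the raised ones less often than the others. The median unstimulated level was 0.76 bases per Mb in the 36 raised peaks and 0.55 in the other 35. Without cytokine, 21 of the 36 and 29 of the other 35 were under 1 base per Mb. At 2 bases per Mb or more stood 6 of the 36 and 1 of the other 35. With IFNG the medians were 6.02 and 0.79. By class, 6 of 8 promoter, 6 of 10 exonic, 18 of 33 distal and 6 of 20 intronic peaks were raised. An ISRE match stood in 12 of the 36 raised peaks and in 4 of the other 35, a GAS match in 15 and in 6, and both together in 8 and in 1. These counts are descriptive, and 17 of the 36 raised peaks held neither match.

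IFNA raised peaks of GBP1 and GBP5 and the one beside GBP1P1, and no other peak of the cluster was called. It raised 4 of the 71, where 0.513% of all tested peaks were raised, and lowered 0, with a median change of 0.12 over the 71. All 4 were also raised with IFNG, a comparison that shares the 4 unstimulated libraries. They were GBP1-8, GBP5-6, GBP5-8 and GBP6-9, each with an ISRE match. Such a match stood in 16 of the 71 peaks, so most peaks with a match were not called with IFNA. GBP1-8 measured 26.1, 25.8, 21.5 and 21.1 bases per Mb with IFNA, above all 4 unstimulated libraries (log2 change 0.87 ± 0.15, limma adjusted p = 2.15e-05). GBP5-8 measured 5.17, 5.35, 3.99 and 3.88, also above every unstimulated library (1.26 ± 0.31, limma adjusted p = 0.0117). GBP5-6 had the largest change, 1.60 ± 0.35 (limma adjusted p = 0.00275), from a mean of 0.70 to 2.82, and GBP6-9 rose by 1.27 ± 0.31 (limma adjusted p = 0.0103). Of the 4 calls, that of GBP1-8 held in every alternative that was run. That of GBP5-6 was lost without unstimulated replicate 2 (limma adjusted p = 0.0931), and those of GBP5-8 and GBP6-9 without unstimulated replicate 3 (0.187 and 0.111) or IFNA replicate 2 (0.0602 and 0.0844). That of GBP5-8 was also lost without IFNA replicate 1 (0.0558) and with a pseudocount of 0.1 (0.0937). Without IFNA replicate 2 or unstimulated replicate 3 the count was 2.

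Set directly against each other at the same dose by mass, IFNA left 26 of the 71 peaks lower than IFNG did and 0 higher. Of all tested peaks, 0.878% were lower. Whether these doses were equal in activity is not given. All 26 were among the 36 raised with IFNG, and both comparisons use the same IFNG libraries. The largest difference was at GBP5-13, with 0.36, 0.91, 0.33 and 1.66 bases per Mb with IFNA against 10.0, 11.0, 9.53 and 11.2 with IFNG (log2 difference -3.17 ± 0.39, limma adjusted p = 3.34e-10). IFNA libraries at this peak overlapped the unstimulated ones. GBP1-1 (-2.95), GBP5-7 (-2.73) and GBP5-8 (-2.62) followed among the named peaks. At the GBP2 start the means were 8.03 ± 1.29 with IFNA and 19.0 ± 1.61 with IFNG (SD, n = 4; -1.20 ± 0.18, limma adjusted p = 3.23e-07), and the IFNA mean was close to the 8.14 of unstimulated cells.
At the GBP1 and GBP3 starts the difference between the interferons did not pass the test. It was -0.36 ± 0.15 at GBP1-8 (limma adjusted p = 0.331) and -0.47 ± 0.23 at GBP3-2 (limma adjusted p = 0.502), although every IFNA library lay below every IFNG library at both. With a pseudocount of 0.1 the count of 26 was 16, all of them among the 26.

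**Figure D2:**
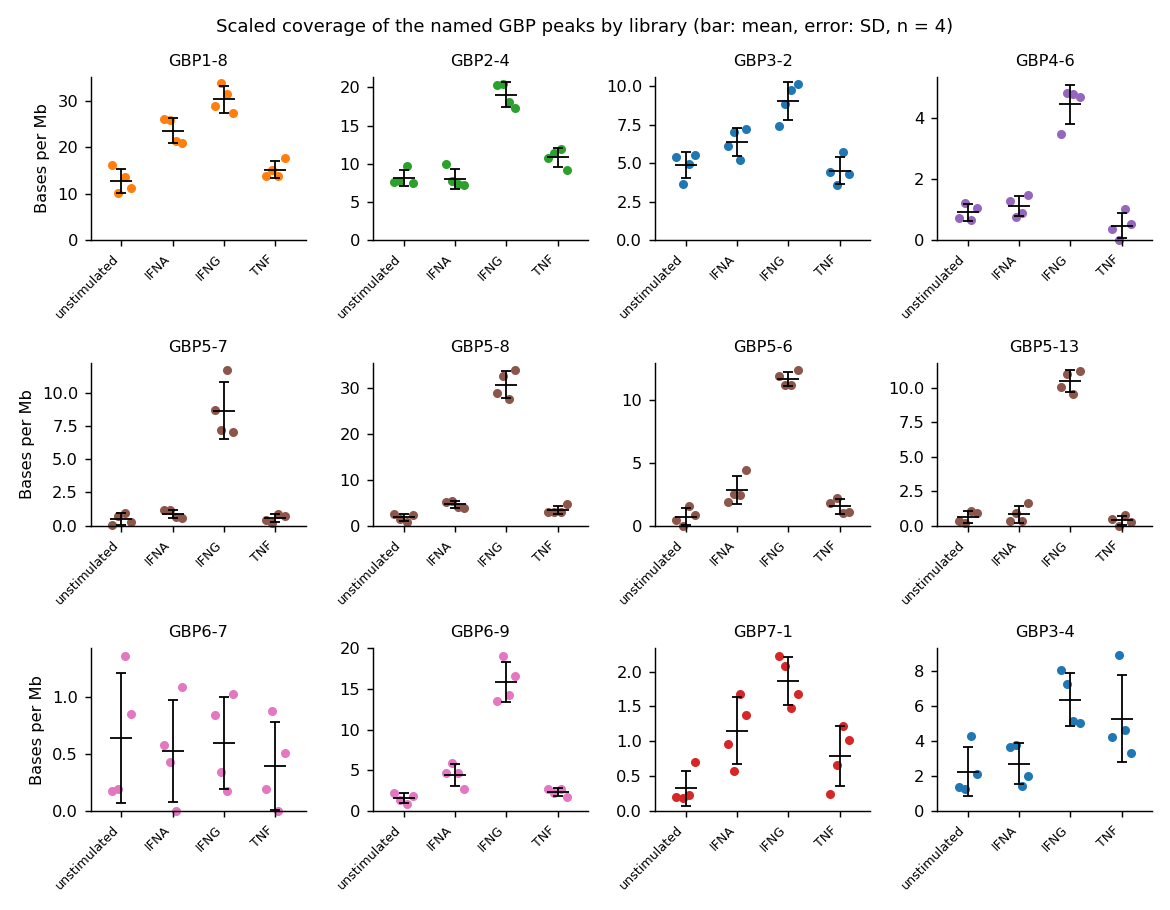
Scaled coverage in bases per Mb (vertical axes) of 12 peaks in the unstimulated, IFNA, IFNG and TNF libraries, with 1 point per library, the mean as a bar and the SD as error (n = 4). IFNG libraries lie above the unstimulated ones in every panel but GBP6-7, and IFNA means lie below IFNG means in each.

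TNF signals mainly through NF-κB and AP-1. It raised 1 of the 71 peaks, where 2.67% of all tested peaks were raised, so the share of GBP peaks, 1.41%, was not above that of all peaks. The peak was GBP3-4, with 4.26, 8.92, 4.65 and 3.31 bases per Mb against 1.40, 1.24, 4.28 and 2.15 unstimulated, and the groups overlapped (log2 change 1.10 ± 0.30, limma adjusted p = 0.00973). The call was lost without TNF replicate 2 (adjusted p = 0.164) and without unstimulated replicate 1 or 2, and 2 peaks were called without unstimulated replicate 3. An AP-1 match stood in 18 of the 71 GBP peaks (25.4%), against 25.7% of all peaks. GBP3-4 held 2 AP-1 matches and no ISRE, GAS or NF-κB match, and a role of these matches was not tested. It was lower with IL1B than with TNF, at 1.21, 1.31, 2.44 and 1.77, the 1 GBP peak that differed between these cytokines (log2 difference -1.35 ± 0.30, limma adjusted p = 0.00185), where 1.00% of all peaks were lower. IL1B was given at 0.1 and TNF at 10 ng/ml, so the doses were not matched.
IFNG left 37 peaks higher than TNF did, where 3.24% of all tested peaks were higher, and GBP5-13 again differed most (3.71 ± 0.39, limma adjusted p = 2.35e-15). One peak, GBP2-12 in the GBP7 coding sequence, was lower, where 3.11% of all peaks were lower, at a mean of 0.64 with IFNG and 2.02 with TNF (-1.30 ± 0.36, limma adjusted p = 0.00847). Its IFNG and TNF libraries overlapped.

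The other cytokines left no GBP peak past the threshold. Of all tested peaks they changed, in either direction, 3.50% (IL1B), 2.85% (OSM), 3.51% (TGFB1), 1.61% (IL13), 0.107% (IL6), 0.0366% (IL22) and 0.0398% (IL17A) by limma, the tool used throughout. At an unadjusted p under 0.05 3 of the 71 GBP peaks passed for IL1B (12.6% of all tested peaks), 10 for OSM (16.9%), 8 for TGFB1 (15.7%), 9 for IL13 (11.3%), 6 for IL6 (8.65%), 4 for IL22 (7.15%) and 7 for IL17A (6.45%). The share of GBP peaks was below that of all peaks for IL1B, OSM, TGFB1, IL6 and IL22 and above it for IL13 and IL17A, with no test of the difference. The lowest adjusted p was 0.0684, for GBP1-8 with IL13, at a mean of 17.9 against 12.8 bases per Mb. The median change of the 71 peaks was -0.26 with OSM and 0.12 with TGFB1, beside -0.22 and 0.15 over all tested peaks. Other settings called 1 or 2 peaks with IL1B, OSM, TGFB1 or IL13.

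Summed over the 71 peaks, coverage was 330.4 ± 11.3 bases per Mb with IFNG, 113.7 ± 3.45 with IFNA, 93.6 ± 2.72 with TNF and 82.9 ± 5.93 unstimulated (SD, n = 4 each). The remaining groups lay between 75.4 (IL22) and 89.6 (IL13). The 4 IFNG libraries were between 317.4 and 342.0, and the 4 IFNA libraries, from 110.9 to 118.7, were below these and above every library of the other groups. From TNF to IL22, each group's range overlapped that of the next in the order of the means. The TNF libraries, from 91.1 to 96.1, nevertheless lay above all unstimulated ones, from 76.1 to 90.2. These sums are given as a description with no test.

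**Figure D3:**
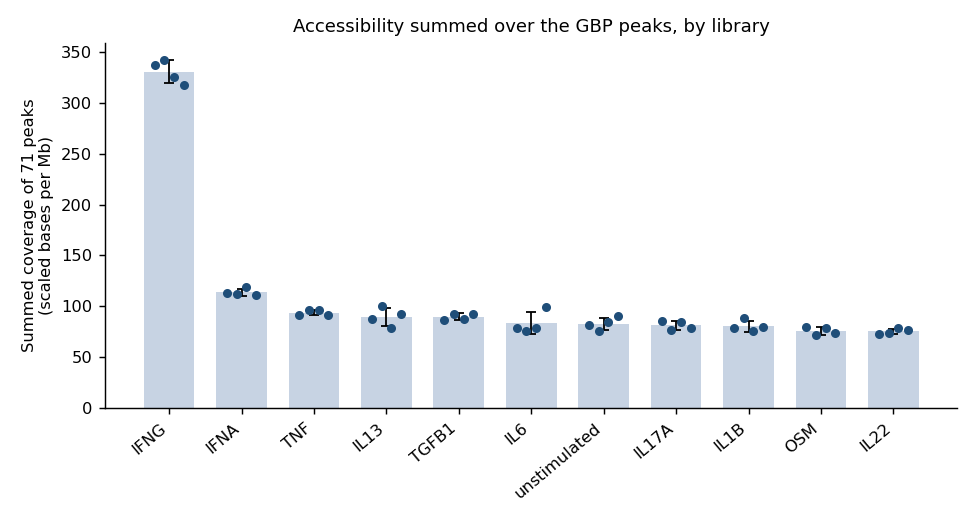
Coverage summed over the 71 peaks in scaled bases per Mb (vertical axis, from 0) in each of the 11 groups, with bars for means, error bars for SD and 1 point per library (n = 4). IFNG stands at 330.4, IFNA at 113.7, and the other 9 groups at or under 93.6.

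**Figure D4:**
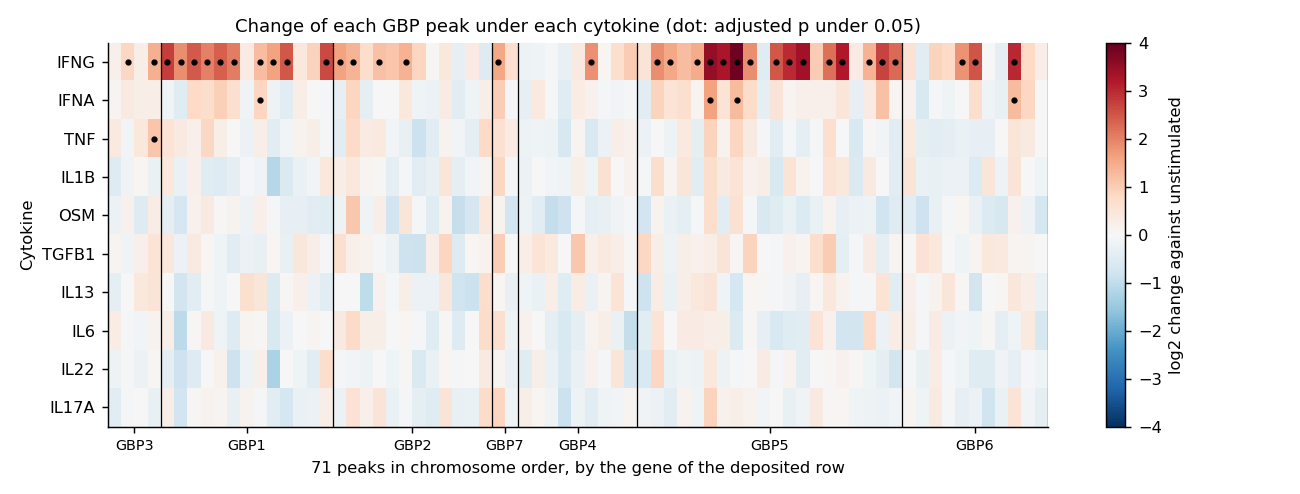
Log2 change of each peak (columns, in chromosome order) under each cytokine (rows) on a colour scale from -4 to 4, with a dot where the adjusted p was under 0.05. Dots number 36 in the IFNG row, with 25 of these at GBP1 and GBP5. They number 4 in the IFNA row and 1 in the TNF row, and are absent from the other rows.

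The same comparison was read at the start sites of genes that act before or with the GBPs, from lists drawn up with earlier results of these data known. Among the genes for interferon receptors, their kinases and interferon regulatory factors, IFNG raised the start-site peaks of IRF9 (14.4 to 23.3 bases per Mb, log2 change 0.68 ± 0.14, limma adjusted p = 0.000738), JAK1 (0.62), IRF1 (0.58) and IRF2 (0.53). IFNA raised IRF9 (0.89 ± 0.14, limma adjusted p = 5.77e-06). The receptor genes IFNGR1, IFNGR2, IFNAR1 and IFNAR2 and the kinase genes JAK2 and TYK2 did not pass the test with IFNG, with log2 changes from -0.19 (IFNAR1) to 0.57 (IFNAR2). TNF raised the TYK2 peak (0.40 ± 0.11, limma adjusted p = 0.00765).
Of 11 effectors and partners, all but NLRP3 had a start-site peak, 10 in all. IFNG raised 6 of these 10, where 1.48% of all tested peaks were raised. The median log2 change over the 10 was 0.86. AIM2, a cytosolic DNA sensor, went from 0.73 to 5.35 (2.46 ± 0.39, limma adjusted p = 7.03e-07), and APOL3, an apolipoprotein that lyses bacteria after GBP1 coating, from 1.69 to 9.66 (2.29 ± 0.30, limma adjusted p = 9.47e-10). MX1 and MX2, antiviral GTPases, and CASP4 and GSDMD, the caspase and the pore protein of GBP-driven cell death, were also raised (1.38, 1.29, 0.96 and 0.68). IFNA raised MX1 by 2.63, MX2 by 1.35 and APOL3 by 1.09. MX1 stood higher with IFNA than with IFNG (1.25 ± 0.24, limma adjusted p = 0.000156), while AIM2 (-2.14) and APOL3 (-1.20) stood lower, as GBP2-4, GBP4-6 and GBP5-7 did among the GBP start sites.
The GBP-related atlastins ATL1, ATL2 and ATL3, which fuse membranes of the endoplasmic reticulum, and the 7 genes that flank the cluster had no start-site peak called with IFNG, IFNA or TNF. KYAT3 and RBMXL1 on the flank share 1 such peak.

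The profile of the 36 raised peaks over the 11 groups was matched against every tested peak with a mean of at least 1 base per Mb, and the 5 genes with the nearest peak were MIR5192 (Pearson r = 0.987), IDO1 (0.985), LGALS17A (0.985), IRF1 (0.985) and MUTYH (0.982). The 11 points are group means from the same 44 libraries, and the order rests on the IFNG group. The IRF1 peak, in an exon of the gene, changed by 3.50 with IFNG, 0.97 with IFNA and 0.11 with TNF on the log2 scale. The LGALS17A peak changed by 4.28, 1.23 and 0.35.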

How the data were processed

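Omni-ATAC libraries of Ccd18-Co cells (44 libraries, 11 groups of 4) were analysed. Per the study's methods, the authors trimmed and aligned paired-end reads to hg38 and called peaks with MACS2 in the ENCODE ATAC-seq pipeline (v2.2.3). The deposited values are coverage summed over 500-base peaks, one unscaled column per library. How these peaks were chosen, and whether starts count from 0 or 1, is not given in the sources used here, and starts were read as 0-based. The most frequent low value, 75, was taken as 1 read.

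Coverage was divided by the library total in Mb and a trimmed-mean composition factor (30% of log ratios, 5% of means trimmed). Values plus 0.5 were tested on the log2 scale with limma 3.58.1 (R 4.3.3; trend, all 44 libraries, group as the term) over 407176 peaks with a log2 mean above -3. These values are not counts, so no interval for counting error was computed. On simulated data for IFNG against unstimulated, over 401193 peaks, 97 of 100 peaks with a 4-fold change and 31 of 100 with a 2-fold change were recovered. The changed peaks were drawn only from those above a minimum coverage in unstimulated cells. These rates therefore say little about low-coverage peaks, as most GBP peaks were at rest. Start-site peaks are the tested peaks nearest the GENCODE 44 start within 1 kb.

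Named peaks were, for each gene, the start-site peak and the one with the largest IFNG change, and for each comparison the called peak with the largest change, and the 5 most similar genes. The members and gene lists were chosen with earlier results of these data known. Other scalings, pseudocounts, filters, weights and left-out libraries were run as alternatives. One listed item is not reported here.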

Additional observations from a re-analysis of the deposited data

Results flagged for a closer look

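Named peaks were picked partly by their IFNG change or by the IFNA against IFNG comparison, which uses the same IFNG libraries. A lower value with IFNA was thus partly built in, and 0.878% of all tested peaks were lower. By a direct limma test of IFNA against IFNG, GBP1-8, GBP3-2, GBP6-7 and GBP7-1 did not pass. The response to the 2 interferons differed at the other 10 named peaks. The log2 differences were -1.20 (GBP2-4), -1.64 (GBP4-6), -2.73 (GBP5-7), -2.95 (GBP1-1), -1.94 (GBP2-1), -1.15 (GBP3-4), -2.62 (GBP5-8), -1.75 (GBP6-9), -1.92 (GBP5-6) and -3.17 (GBP5-13), all lower with IFNA. That of GBP3-4 was lost without IFNA replicate 3 or 4 or IFNG replicate 1 or 2, with an adjusted p of up to 0.176. With a pseudocount of 0.1 the differences at GBP3-4 (adjusted p = 0.0626) and GBP4-6 (0.160) were also lost.

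One library stood apart from its group in 5 of the 56 combinations of named peak and group examined by Dixon's gap to range, where chance gives about 1 in 20. The ratios were 0.873 for the highest unstimulated library at GBP2-4, 0.883 for the lowest IFNG library at GBP4-6, 0.921 for the lowest IFNA library at GBP2-1, 0.929 for the highest TNF library at GBP5-8 and 0.931 for the highest unstimulated library at GBP7-1. In each of these groups the other 3 libraries lay close together.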

How the results depend on the processing

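No alternative turned the direction of a named GBP peak that was called. With IFNG, 27 of the 36 called peaks were called in every alternative that tested them, with IFNA 1 of 4, with TNF 0 of 1, and for IFNA against IFNG 16 of 26. Counts of called GBP peaks that moved by more than 1.5 times are given here, and the cause was not tested. Against 1 in the reported TNF comparison, quality weights gave 2. For IL1B, with 0 reported, loess offsets, a pseudocount of 0.1 and a minimum mean of 1 per Mb each gave 1. For OSM, with 0 reported, loess offsets, quality weights, GC offsets and GC offsets with the block gave 1, and voom weights and the compared groups alone gave 2. For IL13, with 0 reported, a pseudocount of 0.1, the minimum mean, voom weights, quality weights, GC offsets and GC offsets with the block each gave 1. For IFNA against IFNG, a pseudocount of 0.1 gave 16 in place of 26. For IL1B against TNF, with 1 reported, loess offsets, a pseudocount of 0.1, voom weights, quality weights, GC offsets and GC offsets with the block gave 2, and the compared groups alone gave 3. Leaving out 1 library gave 2 to 4 for IFNA (36 for IFNG became 31 to 35), 0 to 2 for TNF, 0 to 1 for OSM, TGFB1 and IL13, and 0 to 2 for IL1B against TNF.

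With the minimum mean of 1 per Mb only 33 of the 71 peaks were tested. Start sites within 2 kb in place of 1 kb changed no count of the gene lists. The median change of all tested peaks, -0.22 with OSM and 0.15 with TGFB1, was -0.00103 and -0.00504 with GC offsets. Few reads per peak limit what can be seen: most of the 71 peaks were under 1 base per Mb at rest.

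Replicate numbers were shared between groups, but the deviations of same-numbered libraries had correlations from -0.0135 to 0.0255 over 40 pairs, 0 above the limit of 0.1 used for pairing. Among the 44 libraries, the highest mean correlation was with the library's own number in 21, where an even split over the 4 numbers gives 11, a hint of a weak link that the labels do not give. With the replicate block the counts of called GBP peaks were 36 for IFNG, 4 for IFNA, 1 for TNF, 26 for IFNA against IFNG, 38 for IFNG against TNF and 1 for IL1B against TNF, as without it.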

Other observations

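Outside the span of the GBP peaks, the response to IFNG fell off within the flanks. These bins were chosen after the values were seen. Of the 38 tested peaks within 200 kb before the span, 3 were raised, named for KYAT3 and RBMXL1, and of the 45 within 200 kb after it, 1 was raised, named for LRRC8B. The median log2 changes were 0.10 and 0.03, beside 1.18 within the span. These raised peaks lay near the span, whose ends follow the names in the deposited rows. The 3 before it lay at -42.1, -37.6 and -22.8 kb from its start. The LRRC8B peak lay at 429.6 kb from the same point, where the span ends at 411.8 kb. From 200 to 500 kb, 0 of 24 peaks before and 1 of 82 after, named for ZNF326, were raised. From 500 to 1000 kb, 0 of 41 and 1 of 48 were. Over all tested peaks, 1.48% were raised with IFNG.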
